A study of Mus musculus with 6 samples.

Results

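This account covers the nuclear-encoded subunits of respiratory complexes II, III and IV and of complex V, the ATP synthase, in mouse liver RNA. Members were protein-coding rows of the deposited gene table whose symbol named a subunit of succinate dehydrogenase (Sdha to Sdhd), the cytochrome bc1 complex (Uqcr genes and Cyc1), cytochrome c oxidase (Cox4 to Cox8 genes) or ATP synthase (Atp5 genes). The rule found 49 of 54532 genes, with 4 in complex II, 9 in complex III, 18 in complex IV and 18 in complex V. It uses symbols only and no measured value. Atp5o appears under 2 gene identifiers, so the 49 rows carry 48 symbols.

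The livers came from mice with a hepatocyte-specific G3bp1 knockout (HKO, 3 libraries) and the controls were floxed litter mates (Flox, 3 libraries). Both groups ate a high-fat diet for 12 weeks from 6 weeks of age, so the diet is shared by every library. G3BP1 binds RNA and seeds stress granules, and the series concerns its role in fatty liver disease. The sources used here do not give the Cre line, the deleted exons or the number of animals behind a library, so p-values measure the spread between libraries, which may be technical.

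Complex II oxidises succinate in the citric acid cycle and passes its electrons to ubiquinone. Complex III passes them on to cytochrome c and complex IV to oxygen, and both add to the proton gradient that complex V uses to make ATP. Apart from complex II, each complex also holds subunits encoded by mitochondrial DNA, so nuclear and mitochondrial transcripts have to be supplied together. Liver depends on this chain to burn fatty acids, and several subunits of complex IV have separate isoforms for heart and skeletal muscle or for testis.

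Reads assigned to genes came to 15804115 in the shallowest library and 17954066 in the deepest, and values are FPKM, reads scaled by gene length and by a library size; lengths equal the union of annotated exons for 47 of the 49 members, so a level set between genes depends on that length. G3bp1 stood at 4.66, 4.27 and 4.44 FPKM in HKO libraries and at 8.46, 8.46 and 9.10 FPKM in Flox libraries, so every library matched its label (log2 difference -0.83, adjusted p = 0.11 in limma, exact permutation p = 0.1, the smallest that 3 against 3 libraries allow). Other liver cells keep the gene in this design. Hepatocyte markers summed to between 38820 and 48155 FPKM in HKO libraries and between 45369 and 47544 FPKM in Flox libraries, and all 7 passed the filter described below. The 5 skeletal muscle markers, among them Ckm at 0 throughout, summed to at most 0.078 FPKM in any library, with 3 of the 5 at 0 in all. In bulk tissue, fewer cells of a type and less RNA per cell cannot be told apart.

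Promoters of the members were read from RefSeq on GRCm38.p6. A promoter was found for 33 of the 42 members tested below. The NRF1 core, GCGCA and GCGC with 1 base of any kind between them, is named for nuclear respiratory factor 1. It lay on either strand in the 300 bases around the start of 10 of these 33 members (30.3%), against 7.17% of 17492 protein-coding genes. The ETS core CCGGAAG, which the factor GABP reads, lay in 12 members (36.4%, against 12.9%) and the YY1 core AAGATGG in 4 (12.1%, against 7.18%). At least 1 of the 3 was present in 21 members (63.6%, against 24.1%). The TATA box TATAAA was present in 1 member (3.03%, against 14.8%). These are letter matches in a window and were not tested for binding. The 17492 genes were not limited to those tested below, so they include genes not expressed in liver. A link between motifs and the differences below was not tested.

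Promoters are shown for 5 of the members, from 150 bases before to 20 bases after the start, 5′ to 3′ on the strand of the gene. The 5 were not picked by a set rule, and NRF1 cores are more frequent among them than among the 33 members. They therefore do not stand for the 33. Capitals mark NRF1, ETS or YY1 cores on either strand. In the order listed, they are chr13:74350221-74350390 (minus), chr9:108936498-108936667 (plus), chr5:115348939-115349108 (minus), chr17:83514314-83514483 (minus) and chr5:108434380-108434549 (minus).
Sdha: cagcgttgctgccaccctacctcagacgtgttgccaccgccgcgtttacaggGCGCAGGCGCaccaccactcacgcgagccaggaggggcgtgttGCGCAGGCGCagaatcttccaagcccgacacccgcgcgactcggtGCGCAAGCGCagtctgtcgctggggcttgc
Uqcrc1: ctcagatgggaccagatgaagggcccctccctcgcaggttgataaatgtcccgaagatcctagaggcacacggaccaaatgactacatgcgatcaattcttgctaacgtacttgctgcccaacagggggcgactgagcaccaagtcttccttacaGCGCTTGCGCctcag
Cox6a1: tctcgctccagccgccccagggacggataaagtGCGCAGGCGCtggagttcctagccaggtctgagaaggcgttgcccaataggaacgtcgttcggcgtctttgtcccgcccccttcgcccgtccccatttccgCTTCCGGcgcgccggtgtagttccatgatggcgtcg
Cox7a2l: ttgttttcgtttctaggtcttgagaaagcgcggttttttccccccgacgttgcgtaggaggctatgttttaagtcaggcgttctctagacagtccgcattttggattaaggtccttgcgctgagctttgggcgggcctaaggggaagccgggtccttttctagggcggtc
Atp5k: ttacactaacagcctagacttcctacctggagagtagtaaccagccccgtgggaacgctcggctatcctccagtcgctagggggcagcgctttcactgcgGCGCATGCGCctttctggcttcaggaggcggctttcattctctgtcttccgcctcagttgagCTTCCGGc
Sdha carried 3 NRF1 cores, Cox6a1 and Atp5k an NRF1 and an ETS core each in the stretch shown, Uqcrc1 an NRF1 core just after its start, and Cox7a2l none of the 3 motifs in its window. Some members with a lower mean in HKO also had none of the 3, among them Uqcrfs1, Cox7a2, Atp5b and Atp5s. Whether the motifs go with the direction of a difference was not tested.

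The question for these genes is whether the respiratory chain transcripts differ between livers with and without hepatocyte G3bp1. Of the 49 members, 42 were tested, having 0.5 FPKM or more in 3 or more libraries. The mean was lower in HKO for 41 of the 42, against 51.2% of all 11856 genes tested. The exception was Cox7a2l, which encodes a factor that joins complexes III and IV into supercomplexes. The median log2 difference of the 42, on log2(FPKM + 1) with HKO minus Flox, was -0.25, with members between -0.73 and 0.28, beside -0.01 over all genes tested. Genes of at least 5 FPKM on average, a range that holds 40 of the 42, had a median of -0.05 and a lower mean in HKO in 59.9% of cases.

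No member passed an adjusted p of 0.05 in limma (0 of 42, in a comparison where 0.00843% of all genes passed as lower and 0.0% as higher), and the adjusted p ran from 0.648 to 0.993. With voom on recovered reads the count was also 0. An unadjusted p under 0.05 was seen for 7 members lower in HKO (background 4.55%) and 0 higher (background 3.08%). Under TPM none of these 7 stayed under 0.05, and Cox7a2l, higher in HKO at a log2 difference of 0.46, was the 1 member there (unadjusted p = 0.0101, adjusted p = 0.419). With 1 library left out, the count in either direction was 11, 1 and 2 without HKO 1, HKO 2 and HKO 3, and 0, 1 and 17 without Flox 1, Flox 2 and Flox 3. All 3 HKO libraries lay below all 3 Flox libraries for 8 members (background 7.21%) and above them for 1 (background 6.06%). The 8 were Sdha and Sdhb, Uqcrc1 and Uqcrfs1, Cox7a2, and Atp5a1, Atp5l and Atp5s. Overlap was judged on deposited FPKM only. Under TPM the means of Sdha, Uqcrfs1 and Atp5l were higher in HKO (log2 differences 0.074, 0.0090 and 0.039), and the rest of the 8 stayed lower. The 1 above was Cox7a2l.

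The count of lower members depends on how libraries are scaled. When FPKM were rescaled to TPM, 28 of the 42 had a lower mean in HKO and the median was -0.07, but there the median of all genes stood at 0.15, 25.5% of all genes were lower, and 39 of the 42 lay below that median. Deposited FPKM of all genes summed to between 412344 and 422735 in HKO libraries and between 431497 and 494433 in Flox libraries, which is what this rescaling divides by. After quantile normalization 34 of the 42 were lower, and after scaling by assigned reads 38. Cox7a2l was higher in HKO under each of these scalings.

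**Figure D1:**
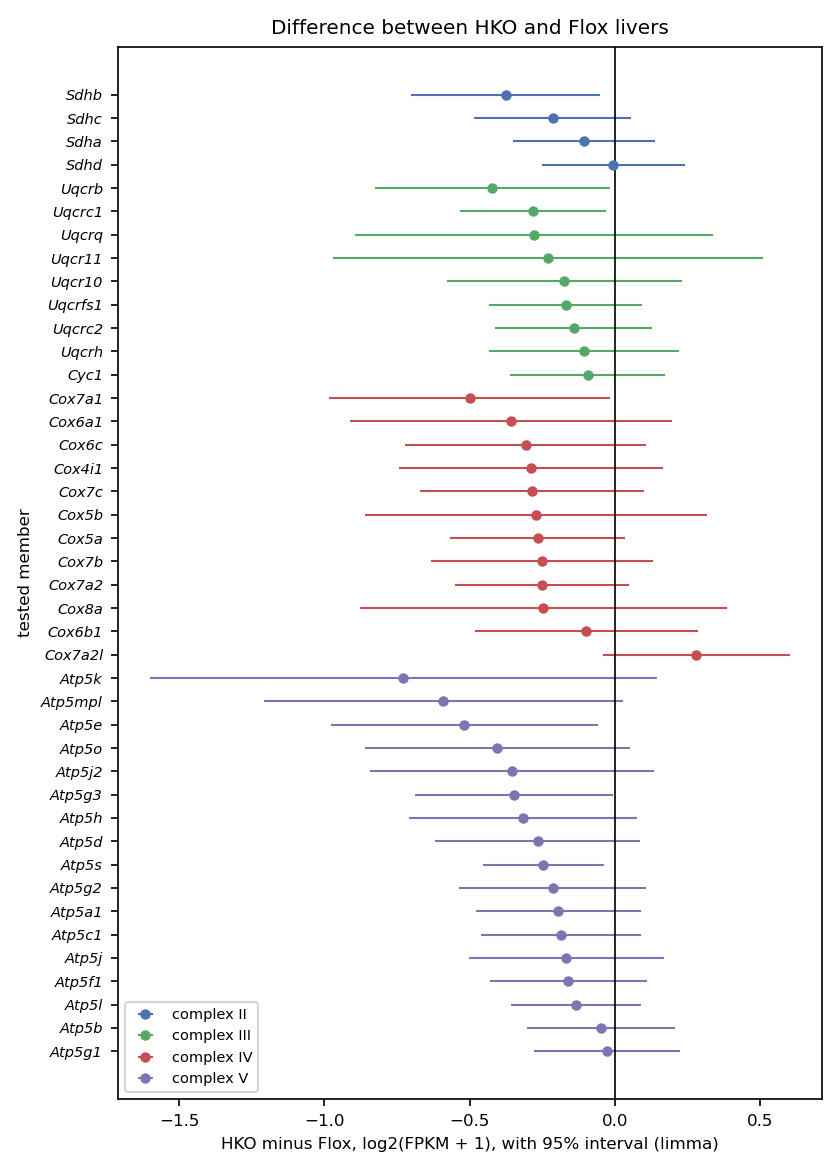
Difference between HKO and Flox libraries for the 42 tested members (x axis, HKO minus Flox on log2(FPKM + 1); bars are 95% intervals from limma; y axis, members by complex). Points of 41 members lie below 0 and Cox7a2l lies above it at 0.28, while most intervals cross 0.

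The 4 subunits of complex II are all nuclear-encoded, and all 4 had a lower mean in HKO, with a median log2 difference of -0.16, which turned to 0.02 under TPM with 2 of the 4 lower, where 25.5% of all genes were lower and 3 of the 4 lay below the all-gene median. Sdhb, the iron-sulfur subunit (ENSMUSG00000009863, chromosome 4, 140961203 to 140979193, plus strand, GRCm38), stood at 88.0, 88.4 and 100.6 FPKM in HKO libraries and at 124.6, 134.0 and 103.1 FPKM in Flox libraries. The groups did not overlap, although HKO 3 and Flox 3 were close. Its means were 92.3 ± 7.13 FPKM in HKO and 121 ± 15.8 FPKM in Flox (SD, n = 3 each), and the log2 difference was -0.38 (SE 0.138, adjusted p = 0.648 in limma).

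Sdha, the flavoprotein that oxidises succinate, stood at 111.2, 111.3 and 115.2 FPKM in HKO libraries and at 117.8, 119.0 and 126.5 FPKM in Flox libraries. These groups did not overlap either, but the gap was small, with a log2 difference of -0.10 (95% interval -0.35 to 0.14). Sdhc, a membrane anchor, stood at 52.6, 51.5 and 56.1 FPKM in HKO libraries and at 66.6, 64.7 and 55.4 FPKM in Flox libraries, where Flox 3 lay within the HKO range (log2 difference -0.21). Sdhd, the other membrane anchor and the most abundant of the 4, stood at 161, 163 and 163 FPKM in HKO libraries and at 168, 158 and 163 FPKM in Flox libraries. Its groups overlapped, with a log2 difference of -0.01 and a 95% interval of -0.25 to 0.24. The 95% interval of Sdhb ran from -0.70 to -0.05. Whether the 4 differ from each other was not tested.

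All 9 complex III members had a lower mean in HKO, with a median log2 difference of -0.17, which turned to 0.0049 under TPM with 4 of the 9 lower, where 25.5% of all genes were lower and all 9 lay below the all-gene median. Uqcrc1, a core protein that faces the matrix (chromosome 9, 108936633 to 108949623, plus strand), stood at 61.6, 61.7 and 64.8 FPKM in HKO libraries and at 73.7, 83.0 and 72.9 FPKM in Flox libraries. The groups were apart, with means of 62.7 ± 1.78 FPKM in HKO and 76.5 ± 5.6 FPKM in Flox, 18.1% lower in HKO (log2 difference -0.28, SE 0.107, adjusted p = 0.648 in limma). Its partner Uqcrc2 stood at 68.0, 80.9 and 77.8 FPKM in HKO libraries and at 83.1, 86.8 and 79.8 FPKM in Flox libraries, where HKO 2 reached into the Flox range. Exons of Uqcrc2 overlap those of Pdzd9 on the other strand by 19.7%.

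Uqcrfs1, the Rieske iron-sulfur protein, stood at 174, 188 and 193 FPKM in HKO libraries and at 213, 211 and 198 FPKM in Flox libraries, without overlap and with a log2 difference of -0.17 (SE 0.112). Cyc1, which encodes cytochrome c1, stood at 111, 111 and 115 FPKM in HKO libraries and at 124, 128 and 109 FPKM in Flox libraries. Flox 3 was its lowest library, and its log2 difference of -0.09 (95% interval -0.36 to 0.17) was the closest to 0 in this complex.

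Several small subunits of complex III spread more across libraries. Uqcrb stood at 119.8, 91.0 and 94.0 FPKM in HKO libraries and at 145.8, 152.4 and 111.5 FPKM in Flox libraries, with HKO 1 above Flox 3 (log2 difference -0.42, SE 0.172, adjusted p = 0.648 in limma). The annotation holds 3 near-identical copies of Uqcrb, so its reads are uncertain. The closest of them, Gm2962, averaged 2.24 ± 2.27 FPKM in HKO and 7.52 ± 1.77 FPKM in Flox (log2 difference -1.59, adjusted p = 0.624 in limma). Uqcrq, the most abundant member of the complex, stood at 299, 192 and 197 FPKM in HKO libraries and at 311, 333 and 195 FPKM in Flox libraries. Uqcr10 stood at 241, 176 and 214 FPKM in HKO libraries and at 253, 262 and 198 FPKM in Flox libraries. In both genes HKO 1 was high for its group and Flox 3 low for its own, and Uqcr11 showed this most, at 228, 125 and 121 FPKM in HKO libraries and 206, 217 and 125 FPKM in Flox libraries. Uqcrh ranged from 114 to 147 FPKM in HKO and from 128 to 152 FPKM in Flox.

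**Figure D2:**
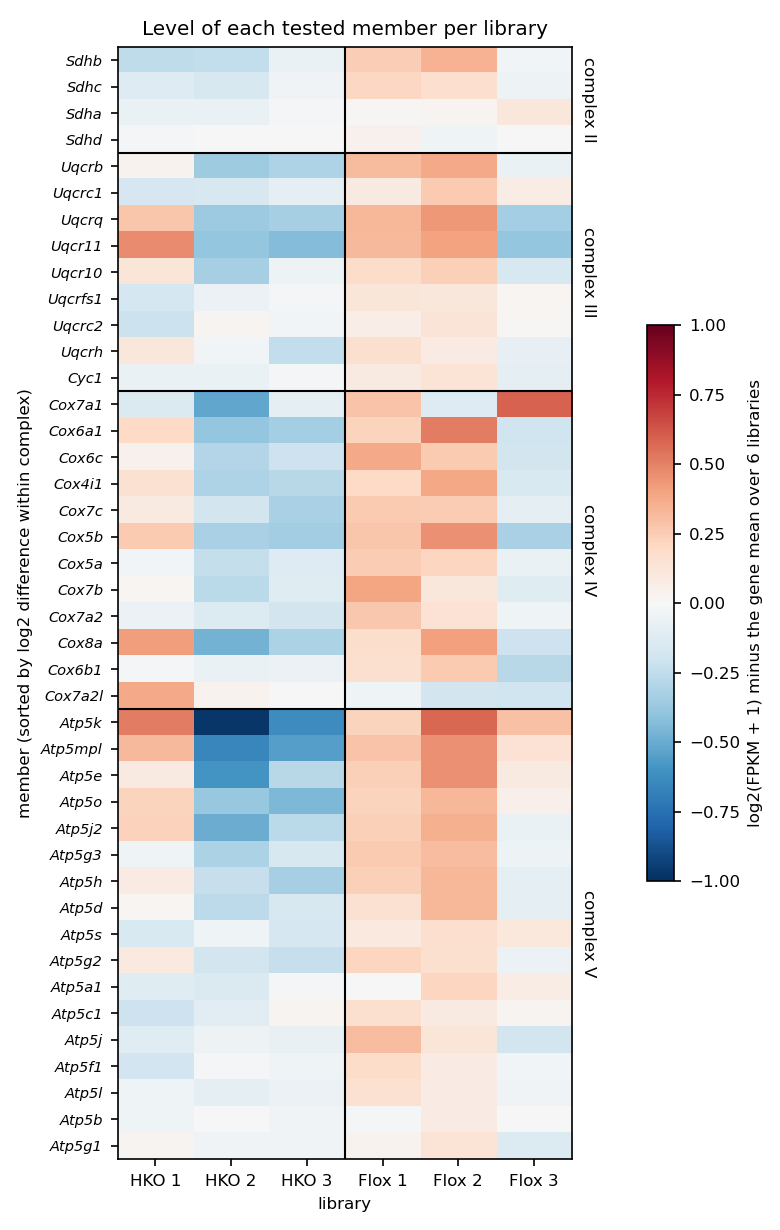
Level of each of the 42 tested members (rows, by complex) in each library (columns, HKO left of Flox), as log2(FPKM + 1) minus the mean of the gene over the 6 libraries. HKO 2 and HKO 3 are below the mean for most members and Flox 1 and Flox 2 above it, while HKO 1 and Flox 3 vary by member and Cox7a2l runs against its complex.

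In complex IV, 12 of 18 members were tested, and 11 of the 12 had a lower mean in HKO, with a median log2 difference of -0.27. Under TPM 10 of the 12 were lower, against 25.5% of all genes, and 11 lay below the all-gene median. Cox6a1 (chromosome 5, 115345642 to 115348981, minus strand), the liver form of a regulatory subunit and the most abundant of all 49 members, stood at 526, 349 and 361 FPKM in HKO libraries and at 534, 654 and 399 FPKM in Flox libraries. HKO 1 lay between the Flox libraries, and the log2 difference was -0.36 (SE 0.236, adjusted p = 0.707 in limma). Cox8a stood at 458, 247 and 276 FPKM in HKO libraries and at 387, 455 and 296 FPKM in Flox libraries. There HKO 1 was the highest library of all, and the 95% interval of the log2 difference ran from -0.88 to 0.39.

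Cox5a, which binds the regulatory domain of subunit IV, stood at 47.0, 40.4 and 43.6 FPKM in HKO libraries and at 57.2, 55.6 and 45.6 FPKM in Flox libraries (log2 difference -0.27, SE 0.128). Its exons overlap those of the noncoding Gm26631 on the other strand by 12.8%. Cox4i1, the liver form of subunit IV, stood at 263, 191 and 195 FPKM in HKO libraries and at 272, 310 and 213 FPKM in Flox libraries. Cox4i1, Cox5b, Cox6c, Cox7b and Cox7c had log2 differences between -0.31 and -0.25, each with overlapping groups, and Cox5b has a near-identical annotated copy. Cox6b1, at the contact between enzyme monomers, was closest to level, at 215, 207 and 208 FPKM in HKO libraries and 243, 261 and 179 FPKM in Flox libraries (log2 difference -0.10, 95% interval -0.48 to 0.29).

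Cox7a2l and its relative Cox7a2 differed in opposite directions. Cox7a2l (ENSMUSG00000024248, chromosome 17, 83501919 to 83514333, minus strand, GRCm38) stood at 109.7, 86.3 and 84.5 FPKM in HKO libraries and at 81.5, 74.1 and 73.3 FPKM in Flox libraries. Every HKO library lay above every Flox library, with means of 93.5 ± 14.1 FPKM in HKO and 76.3 ± 4.48 FPKM in Flox (log2 difference 0.28, SE 0.137, adjusted p = 0.668 in limma). Cox7a2, the liver form of a small structural subunit, stood at 154, 145 and 141 FPKM in HKO libraries and at 193, 177 and 155 FPKM in Flox libraries, without overlap in the other direction (log2 difference -0.25, SE 0.127, adjusted p = 0.678 in limma).

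The ratio of Cox7a2l to Cox7a2 FPKM, which no scaling of a library can alter, was 0.713, 0.595 and 0.601 in HKO libraries and 0.421, 0.418 and 0.474 in Flox libraries. It averaged 0.636 ± 0.0668 in HKO and 0.438 ± 0.0313 in Flox (SD, n = 3 each). The groups of both genes lie apart in opposite directions, which fixes that of the ratio. Its exact permutation p of 0.1, the smallest possible, was therefore settled in advance. The ratio is given as a description, and its p is not further support.

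Muscle and testis forms of complex IV subunits, and Cox4i2, the counterpart of Cox4i1, were close to absent. Cox7a1, the heart and skeletal muscle counterpart of Cox7a2, was the only one of them to pass the filter, at 0.738, 0.336 and 0.807 FPKM in HKO libraries and 1.34, 0.755 and 1.89 FPKM in Flox libraries. These values rest on 7, 3 and 8 reads in HKO and 11, 6 and 17 reads in Flox, HKO 3 lay above Flox 2, and the log2 difference of -0.50 (SE 0.205, adjusted p = 0.648 in limma) is therefore imprecise. Cox6b2, a testis form, fell well short of the filter, at no more than 0.243 FPKM in any library. It had 0, 3 and 5 reads in HKO and 1, 2 and 3 reads in Flox. Cox8b had 1, 0 and 2 reads in HKO and 1, 0 and 0 in Flox, Cox4i2 had 0, 2 and 0 in HKO and 2, 1 and 0 in Flox, and Cox6a2 had 0 in all of HKO and 1, 2 and 0 in Flox. At these depths no difference was detectable. Cox7b2 and Cox8c had 0 reads in every library, a count that allows up to 3 reads per library for counting error only.

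**Figure D3:**
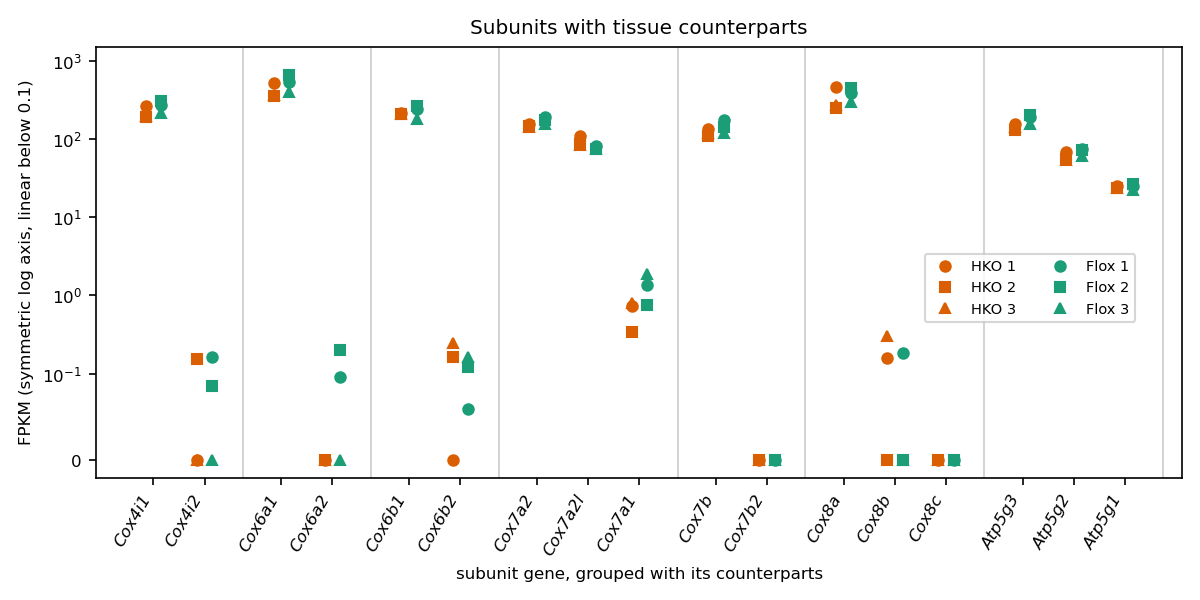
FPKM of subunits with tissue counterparts (y axis, symmetric log scale, linear below 0.1) in each HKO and Flox library; markers give the library number. The liver forms lie above 100 FPKM in most libraries, and the muscle and testis forms of complex IV and Cox4i2 below 2 FPKM. Cox7a2l is the gene whose HKO libraries all lie above its Flox libraries.

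All 17 tested members of complex V had a lower mean in HKO, with a median log2 difference of -0.25. Under TPM 12 of the 17 were lower, against 25.5% of all genes, and 16 lay below the all-gene median. After quantile normalization 15 of the 17 were lower. Atp5b, the catalytic beta subunit, stood at 241, 249 and 242 FPKM in HKO libraries and at 245, 263 and 249 FPKM in Flox libraries, where the groups overlapped and the log2 difference was -0.05 (95% interval -0.30 to 0.21). Atp5a1, the alpha subunit and the most abundant of the complex, stood at 290, 285 and 312 FPKM in HKO libraries and at 317, 366 and 333 FPKM in Flox libraries. Its groups did not overlap (log2 difference -0.19, SE 0.12, adjusted p = 0.693 in limma).

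Atp5e, the epsilon subunit of the central stalk, stood at 106.3, 65.7 and 82.3 FPKM in HKO libraries and at 117.5, 137.0 and 106.0 FPKM in Flox libraries, with HKO 1 just above Flox 3. Its means were 84.8 ± 20.4 FPKM in HKO and 120 ± 15.6 FPKM in Flox (log2 difference -0.52, SE 0.195, adjusted p = 0.648 in limma). The gamma and delta subunits Atp5c1 and Atp5d had log2 differences of -0.19 and -0.27, and their groups overlapped.

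Atp5k, subunit e of the membrane sector, which helps ATP synthase form dimers, had the lowest log2 difference of all members, at -0.73 (SE 0.367, adjusted p = 0.678 in limma). It was -1.17 without HKO 1 and -0.42 without HKO 2. It stood at 95.2, 33.4 and 42.6 FPKM in HKO libraries and at 77.6, 99.5 and 81.7 FPKM in Flox libraries. HKO 2 and HKO 3 lay below every Flox library, while HKO 1 lay between Flox 3 and Flox 2. Atp5mpl, a small proteolipid of the same sector, also had HKO 1 within the Flox range, at 79.0, 39.6 and 42.5 FPKM in HKO libraries and 76.7, 86.9 and 69.7 FPKM in Flox libraries (log2 difference -0.59, SE 0.262). Usmg5, a dimer subunit whose symbol falls outside the rule, stood at 336, 264 and 282 FPKM in HKO libraries and at 440, 415 and 327 FPKM in Flox libraries (log2 difference -0.42, adjusted p = 0.648 in limma).

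The rotor ring is made of subunit c, whose protein is encoded by 3 genes. Atp5g3, the most abundant, stood at 156, 129 and 143 FPKM in HKO libraries and at 193, 200 and 155 FPKM in Flox libraries, with HKO 1 just above Flox 3 (log2 difference -0.35, SE 0.145, adjusted p = 0.651 in limma). Atp5g2 averaged 59.3 ± 7.59 FPKM in HKO and 68.8 ± 6.84 FPKM in Flox, and Atp5g1 averaged 24.0 ± 0.666 FPKM in HKO and 24.5 ± 2.41 FPKM in Flox. The order Atp5g3, Atp5g2, Atp5g1 held in every library. The ratio of Atp5g1 to Atp5g3 was 0.169 ± 0.0122 in HKO and 0.135 ± 0.00633 in Flox (SD, n = 3 each). Its two-sided exact permutation p was 0.1, the smallest possible, and 0.15 adjusted over 3 ratios, Cox7a2l to Cox7a2 among them. Atp5g1 had the log2 difference closest to 0 in complex V, and Atp5g3 was among those with the smallest p. That ratio therefore restates differences already given, and its p is not further support. The ratio of Atp5g2 to Atp5g3 was 0.415 ± 0.0338 in HKO and 0.378 ± 0.0187 in Flox (two-sided exact permutation p = 0.3, adjusted 0.3).

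The level of Atp5g1, and with it the ratio to Atp5g3, is uncertain because of the processed pseudogene Gm10039, 99.757% identical to part of it. Gm10039 was listed at 125 ± 22.7 FPKM in HKO and 151 ± 23.5 FPKM in Flox, well above Atp5g1 itself. Atp5l, subunit g, is affected more. It stood at 16.5, 15.9 and 16.4 FPKM in HKO libraries and at 19.1, 18.1 and 16.6 FPKM in Flox libraries, while its pseudogene Gm10221, identical over the aligned part, was listed at 160 ± 24.6 FPKM in HKO and 200 ± 29.8 FPKM in Flox. The copies of both genes were also lower in HKO, at log2 differences of -0.27 and -0.32 (adjusted p = 0.704 and 0.684 in limma). Atp5h, Atp5f1 and Atp5o have near-identical copies as well, at log2 differences of -0.18, -0.03 and 0.01, and the copy of Cox5b stood at -0.10. The copy reached 67.5% of the mean FPKM of the member for Atp5h and 37.7% for Cox5b, so these levels are uncertain too. It reached 10.2% for Atp5o and 3.71% for Atp5f1. The second Atp5o identifier had 0 reads throughout. Without the 7 tested members that have a near-identical copy, 34 of 35 were lower in HKO, with a median of -0.25.

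Atp5s, a coupling factor rather than a stoichiometric subunit, was the least abundant tested member of complex V. It stood at 2.57, 2.85 and 2.54 FPKM in HKO libraries and at 3.25, 3.47 and 3.27 FPKM in Flox libraries. The groups did not overlap, and this gene had the smallest unadjusted p of the 42 members (0.0271, log2 difference -0.25, SE 0.0888, adjusted p = 0.648 in limma). These values rest on 93, 97 and 96 reads in HKO libraries and 102, 105 and 112 reads in Flox libraries. Under TPM the log2 difference was -0.13 (unadjusted p = 0.312 in limma).

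The library pattern was shared by most members. Averaged over the 42 tested members, the log2 level relative to the mean of each gene was 0.05, -0.24 and -0.18 in the HKO libraries numbered 1 to 3, and 0.19, 0.23 and -0.05 in the Flox libraries numbered 1 to 3. HKO 1 thus lay above Flox 3, and the groups overlapped. Relative to the Flox mean, 28 of the 42 were lower in HKO 1, and 41 of the 42 in each of HKO 2 and HKO 3. Below the lowest Flox library lay 14 members in HKO 1 and 30 in each of the other HKO libraries. The highest library was Flox 2 for 23 members and Flox 1 for 14, and the lowest was HKO 2 for 19.

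Complex II was the complex whose level put all HKO libraries below all Flox libraries, at -0.12, -0.12 and -0.03 in HKO and 0.13, 0.12 and 0.01 in Flox. Complexes III, IV and V each had HKO 1 above Flox 3. Complex IV stood at 0.11, -0.26 and -0.20 in HKO libraries and at 0.24, 0.23 and -0.11 in Flox libraries. The first principal component over all genes tested, with 33.6% of the variance, also had HKO 2, HKO 3 and Flox 3 on one side (13.8, 14.5 and 14.1) and HKO 1, Flox 1 and Flox 2 on the other. Whichever library was left out, 39 to 41 of the 42 had a lower mean in HKO.

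**Figure D4:**
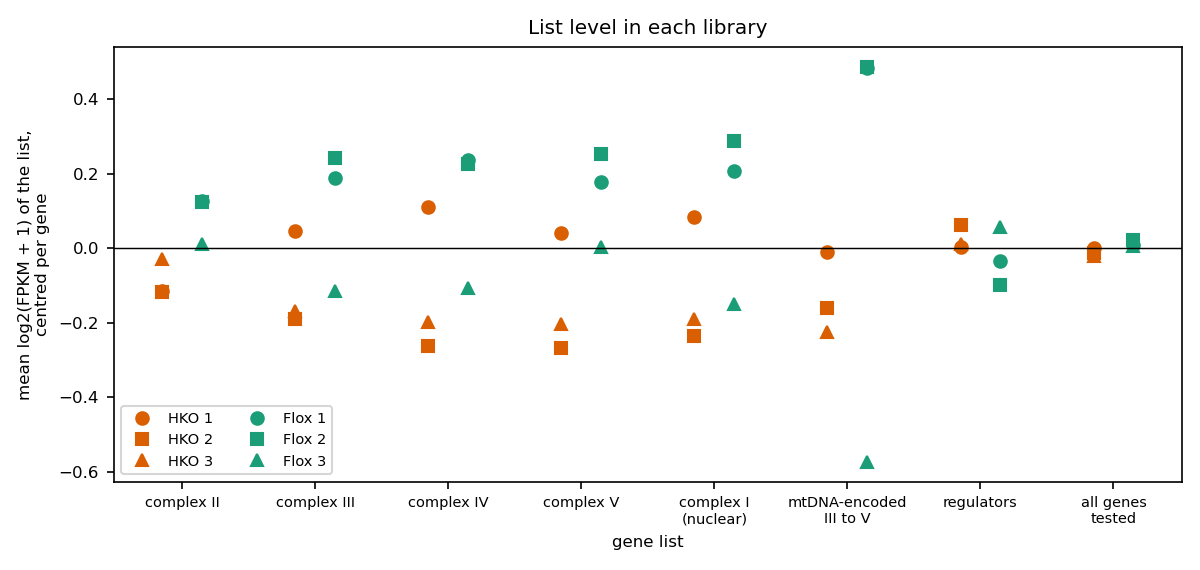
Mean log2(FPKM + 1) of each gene list in each library after centring every gene on its mean (y axis), with HKO left of Flox in each list. For complexes III to V HKO 1 lies above Flox 3, and the level over all genes tested stays between -0.02 and 0.02. For complex II the groups do not overlap, with HKO 3 and Flox 3 close.

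All members together took 1.018%, 0.854% and 0.902% of assigned reads in HKO libraries and 1.036%, 1.047% and 0.949% in Flox libraries. The 95% Wilson interval, for counting error only, was 0.850 to 0.859% in HKO 2, the lowest, and 1.042 to 1.052% in Flox 2, the highest. Complex II took 7.17%, 8.96% and 9.06% of the summed member FPKM in HKO and 7.72%, 7.25% and 8.81% in Flox. Complex IV took 38.8%, 35.3% and 34.9% in HKO and 37.4%, 38.1% and 34.5% in Flox. The order of members by level changed little, with Spearman correlations of 0.946 to 0.988 between pairs of libraries across the 42 members, which share depth and gene lengths within a library. Gene length and log2 difference had a Spearman correlation of 0.27 across the members. Members under 1500 bases (17) and longer ones (25) had the same median log2 difference of -0.25, whereas over all genes tested it was -0.09 for 1957 genes under 1500 bases and 0.00 for 9899 longer ones.

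Summed markers of other cells differed between the groups for some cell types. The 7 Kupffer cell markers summed to between 126 and 205 FPKM in HKO libraries and between 77.7 and 149.5 FPKM in Flox libraries, and all 7 were tested. Taken one by one, Vsig4 stood at 19.2 to 28.8 FPKM in HKO and 10.7 to 14.3 FPKM in Flox, without overlap. Csf1r (8.67 to 13.7 against 5.25 to 8.01 FPKM) and Adgre1 (4.48 to 5.87 against 1.65 to 4.12 FPKM) were also higher in HKO without overlap. Cd5l, Clec4f, Marco and Timd4 overlapped between the groups. The 3 erythroid markers summed to between 124 and 253 FPKM in HKO libraries and between 272 and 308 FPKM in Flox libraries, without overlap. Singly, Hba-a1 did not overlap, while Hbb-bs (120.9 FPKM in HKO 2, 116.6 in Flox 2) and Alas2 (51.1 FPKM in HKO 2, 35.3 in Flox 3) did. Endothelial, stellate and cholangiocyte markers overlapped between the groups, at 18.9 to 23.6, 51.4 to 55.2 and 2.67 to 4.60 FPKM in HKO and 16.1 to 21.1, 48.5 to 57.9 and 3.19 to 3.73 FPKM in Flox. Lymphocyte markers summed to between 1.12 and 2.31 FPKM in HKO and between 0.994 and 1.08 FPKM in Flox, with 2 of 4 tested. HKO 2 was the highest, with 28 reads of Cd79a and 36 of Ms4a1. Cardiac muscle, fat and testis markers summed to at most 0.171, 0.347 and 0.104 FPKM in any library. The part of these cells in the differences above was not tested.

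All 37 nuclear complex I subunits had a lower mean in HKO, with a median log2 difference of -0.20 and 5 at an unadjusted p under 0.05 (background 4.55%). Under TPM 23 of the 37 were lower, against 25.5% of all genes, and 36 lay below the all-gene median. The list has Ndufa4, now assigned to complex IV, at a log2 difference of -0.18. All 6 mitochondrially encoded subunits of complexes III to V had a lower mean in HKO (median -0.24). Under TPM 5 of the 6 were lower, against 25.5% of all genes, and after quantile normalization 4 of the 6. Near-identical copies were searched for the nuclear members only, so the part of such copies in the levels of these 6 is not known. mt-Atp6 stood at 447, 448 and 475 FPKM in HKO libraries and at 835, 889 and 307 FPKM in Flox libraries, so that Flox 3 lay below every HKO library. mt-Cytb averaged 8379 ± 742 FPKM in HKO and 9950 ± 1871 FPKM in Flox (log2 difference -0.23).

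Of 32 assembly factors tested for complexes II to V, 23 had a lower and 9 a higher mean in HKO, with a median of -0.07, and under TPM 13 of the 32 were lower, against 25.5% of all genes, and 21 lay below the all-gene median. Sdhaf4, which helps mature the flavoprotein of complex II, averaged 13.4 ± 1.87 FPKM in HKO and 18.3 ± 2.04 FPKM in Flox, without overlap (log2 difference -0.43, adjusted p = 0.648 in limma). Taco1, a translational activator of the complex IV subunit mt-Co1, averaged 16.1 ± 1.52 FPKM in HKO and 12.5 ± 0.585 FPKM in Flox, apart in the other direction (log2 difference 0.34, adjusted p = 0.648 in limma).

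Of 18 electron carrier, ubiquinone synthesis and nucleotide exchange genes, 16 had a lower mean in HKO (median -0.14). Under TPM 9 of the 18 were lower, against 25.5% of all genes, and 16 lay below the all-gene median. Coq8a, an ubiquinone synthesis factor, averaged 61.3 ± 6.14 FPKM in HKO and 78.6 ± 10.5 FPKM in Flox, and the adenine nucleotide translocator gene Slc25a5 averaged 199 ± 21.7 FPKM in HKO and 240 ± 12.2 FPKM in Flox. Regulators of nuclear respiratory genes did not share the direction: 3 of 12 had a lower mean in HKO, and the median was 0.04. Among them the coactivator genes Pprc1 and Ppargc1b averaged 1.83 ± 0.237 and 0.738 ± 0.126 FPKM in HKO and 1.25 ± 0.693 and 0.927 ± 0.214 FPKM in Flox, with overlapping groups. Cytosolic ribosomal protein genes had a lower mean in 21 of 76 cases, with a median of 0.08, and 14 of the 76 were lower under TPM, against 25.5% of all genes. Rpl3 and Rps4x averaged 84.5 ± 7.82 and 147 ± 10.8 FPKM in HKO and 69.1 ± 1.3 and 120 ± 8.48 FPKM in Flox. In none of these lists did a gene pass an adjusted p of 0.05 in limma.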

How the data were processed

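The series holds 6 mouse liver RNA libraries, 3 HKO and 3 Flox, and the labels do not say whether each is its own animal. RNA was isolated on RNeasy Plus columns and 1.3 µg entered NEBNext Ultra libraries, a kit that does not mark strand, per the labels' protocols. The authors deposited 1 table of FPKM with a length for each gene. The submitters' processing notes name GRCm38 and mm10. The aligner, counter and annotation release: not given in the sources used here. FPKM times length was a whole multiple of 1 step for 100% of values above 0 (within 0.02 reads), which gave the reads quoted.

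The 11856 genes of 0.5 FPKM or more in 3 or more libraries were fitted as log2(FPKM + 1) with limma 3.58.1 in R 4.3.3 (trend, robust, two-sided), adjusted by Benjamini-Hochberg with a threshold of 0.05. Differences on this scale understate the change of low genes. The fit was tested on simulated data. Group values are means ± SD. The members and lists were chosen with earlier results of these data known, so no p was adjusted over a list and no list was tested. The 3 ratios between counterparts were tested by exact permutation and adjusted among themselves.

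Named in full were, in each complex, up to 4 tested members with the smallest p, the 2 most abundant and the one closest to 0, subunits with tissue counterparts, and up to 2 genes of each pathway list. Uqcr11, Atp5k, Atp5l, Usmg5 and Ndufa4 fall outside this rule and were chosen after their values were seen. Members were compared with GENCODE M21 transcripts by blastn 2.17.0, and a copy matched at 97% identity or more over at least 200 bases and 80% of either transcript. Of the gene identifiers in the table, 99.9% occur in that annotation.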

Additional observations from a re-analysis of the deposited data

How the results depend on the processing

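No member was called under any alternative run, and the number of all genes called as lower was 1, against 0 without a filter, 2 among genes of at least 5 FPKM on average, 3 with voom on recovered reads (added after seeing the data) and 0 to 12 when 1 library was left out (12 without HKO 1), with 0 to 1 called as higher. The list medians moved most with scaling. Under TPM the median log2 difference was -0.073 for all members, 0.018 in complex II (2 of 4 lower), 0.0049 in complex III (4 of 9 lower), -0.094 in complex IV and -0.088 in complex V. There the median of all genes was 0.15, and 25.5% of all genes were lower. Quantile normalization gave -0.11 for all members, -0.031 in complex II (2 of 4 lower), -0.048 in complex III, -0.13 in complex IV and -0.13 in complex V, and scaling by assigned reads gave -0.081 in complex II and -0.095 in complex III. Single genes were higher in HKO under TPM for Sdhd (0.17), Sdha (0.074), Uqcr10 (0.00495), Uqcrfs1 (0.0090), Uqcrh (0.073), Cyc1 (0.085), Uqcrc2 (0.036), Cox6b1 (0.081), Atp5b (0.13), Atp5f1 (0.018), Atp5j (0.010), Atp5g1 (0.15), Atp5l (0.039) and Ndufa4 (0.000865). The same held after quantile normalization for Sdhd (0.15), Sdha (0.023), Uqcrh (0.020), Cyc1 (0.027), Cox6b1 (0.012), Atp5b (0.080), Atp5g1 (0.034) and mt-Cytb (0.14), and after scaling by assigned reads for Sdhd (0.073), Atp5b (0.032) and Atp5g1 (0.050). The cause was not tested. With 1 library left out, the median was -0.33 to -0.18 for all members, -0.19 to -0.14 in complex II, -0.30 to -0.11 in complex III, -0.40 to -0.20 in complex IV and -0.31 to -0.19 in complex V, and the difference was -0.028 to 0.016 for Sdhd (highest without Flox 1), -0.26 to 0.010 for Cox6b1 and -0.10 to 0.036 for Atp5g1 (both highest without Flox 2). Atp5k ranged from -1.17 to -0.42. Libraries with the same replicate number had correlations of deviations between 0.0150 and 0.0704, so the numbers were not taken to pair them. The replicate block called 0 genes as lower and left 41 of 42 members lower with a median of -0.25. G3bp1 passed with voom (log2 difference -0.96, adjusted p = 0.037). The planned count tests with other normalizations were not run, since the deposited unit is FPKM. Members under about 20 reads, such as Cox7a1, are limited by depth.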
